A study of Mus musculus with 6 samples.

Results

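The syndecans and glypicans, the main heparan sulfate proteoglycans that are fixed to the cell membrane, were followed in mammary tumours with and without serglycin. The 10 genes are Sdc1 to Sdc4 and Gpc1 to Gpc6. They were chosen by name, each as the probe set that the platform annotation gives that single symbol, with the brightest taken where a gene had more than 1. All 10 had such a probe set, among 22180 genes measured. The samples were breast tumour tissue from 6 mice, each genotyped, 1 array per tumour. All carried PyMT, a transgene for the middle T oncoprotein of polyoma virus that drives mammary tumours. In 3 the genotype was PyMT+ SG-/-, with no intact allele of serglycin, and in 3 it was PyMT+ SG+/-, with 1 intact allele, so that the controls also carry a disrupted allele. The promoter of the transgene, the age and strain of the mice and the removed part of the serglycin gene do not appear in the labels. Values are log2 expression after robust multi-array averaging (RMA), and each difference is SG-/- minus SG+/- on that log2 scale. Where single tumours of a genotype are listed, they stand in the order of replicates 1 to 3, a numbering that carries no meaning. The comparison made here is whether these cell-associated heparan sulfate proteoglycans are expressed differently when serglycin, a proteoglycan of secretory granules, is lost.

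Syndecans cross the membrane. Their outer part carries heparan sulfate chains, in some members chondroitin sulfate as well, and their short cytoplasmic tail binds PDZ proteins and the cytoskeleton. Glypicans sit on the outer face of the membrane on a glycosylphosphatidylinositol anchor. The chains of both families hold growth factors, chemokines, Wnt and hedgehog proteins and matrix proteins, and present them to their receptors. In mammary tissue SDC1 is a protein of epithelial cells and plasma cells, SDC2 is found on fibroblasts and endothelium, SDC3 was first described in the nervous system, and SDC4 is widespread and takes part in focal adhesions.

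None of the 10 genes passed limma's test between genotypes (0 of 10 at an adjusted p under 0.05, over all genes). Over all 22180 genes the share called was 0.0%, and 469 genes, or 2.11%, had an unadjusted limma p under 0.05. No syndecan or glypican did. In none of the 10 did the 3 SG-/- values stand clear of the 3 SG+/- values, which was so in 6.03% of all genes. The genotype means were higher in SG-/- tumours in 9 genes and lower in Gpc5 alone, beside 46.3% higher over all genes. In 6 of the 10 the direction changed under at least 1 of the alternatives described below. The median difference over the 10 genes was 0.083, with 0.083 in the 4 syndecans and 0.089 in the 6 glypicans, beside -0.014 over all genes. It rested on single tumours: leaving out SG-/- replicate 2 gave 0.0058, leaving out SG-/- replicate 3 gave 0.23, and limma's array weights gave 0.19. The median of the absolute differences was 0.11, close to the 0.10 of the 10956 genes above the level of silent receptors defined below. The number of arrays limits the precision of every one of these values. Srgn, the targeted gene, read 6.76, 6.43 and 6.35 in the SG+/- tumours and 5.07, 5.04 and 4.89 in the SG-/- tumours, with no overlap. Its difference was -1.52 (limma unadjusted p = 2.1e-05, adjusted p = 0.467), rank 1 of 22180 genes by p. The gene with the smallest p thus did not pass adjustment either. Both Srgn means lay under the level of silent receptors, so the size of its fall is uncertain and no fold is given. The series description counts 666 of 672 altered genes as lower in SG-/- tumours, at a threshold written as a log2 fold of 1.2. Past a difference of 1.2 on the log2 scale, with no p required, 26 genes were higher and 11 lower here. The test behind the description's count is not given in the sources used here.

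The arrays differed in a way that touches these genes. SG-/- replicate 3 had the narrowest spread of values (interquartile range 2.56, against 2.85 to 3.15 in the other 5 arrays). It also had the highest mean over 1394 olfactory and vomeronasal receptor genes, which are taken to be silent in this tissue (5.86, against 4.57 to 5.62). The 95th percentile of the means of those receptor genes, 7.07, is used here as the level above which a gene is called detected. The floor of each single probe set is not known. Of the 10956 genes above that level, 59.8% had their lowest value of all 6 tumours in SG-/- replicate 3. A low value there is thus common to most detected genes. All 11 luminal epithelial markers, such as Krt8 and Epcam, were above the level.

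By that level 8 of the 10 genes were detected and 2, Gpc2 and Gpc5, were not. The means over 6 tumours of Gpc2 and Gpc5 were 6.46 and 6.54, higher than 85.3% and 86.8% of the silent receptor genes. Gpc3 lay close to the limit, with a mean of 7.21. Its SG+/- mean of 6.95 was under the level. In 3 of 6 arrays Gpc3 was above the 95th percentile of the receptor genes of that same array.

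**Figure D1:**
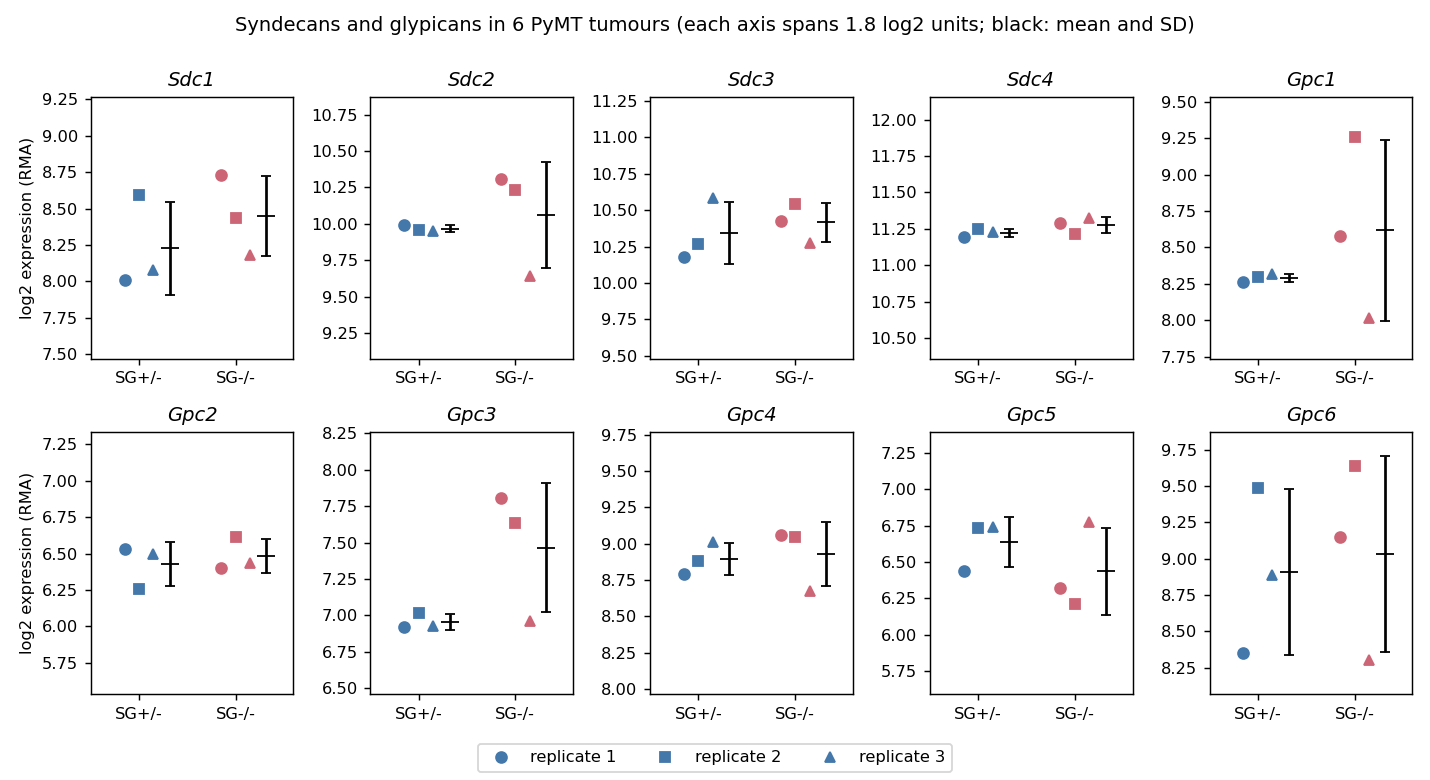
Log2 RMA expression of each syndecan and glypican (vertical axes, each spanning 1.8 log2 units) in the 3 SG+/- tumours (blue) and the 3 SG-/- tumours (red), with the marker shape giving the replicate and black bars the mean and SD. Sdc4 lies within 0.13 over all 6 tumours, Gpc6 spans 1.33, and the SG-/- values of Gpc3 are 7.80, 7.63 and 6.96 against 6.92 to 7.01 in SG+/- tumours.

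Of the 6 glypican genes, 4 lie beside another glypican gene. In the RefSeq annotation of GRCm38.p6, Gpc4 and Gpc3 are adjacent protein-coding genes on chromosome X, and Gpc5 and Gpc6 on chromosome 14. The upstream sequence of 7 of the 10 genes was in the RefSeq promoter table, and 3 of them are printed here, 250 bases up to the start of the transcript, 5′ to 3′ in the direction of the gene. Gpc3 is shown as the gene with the largest difference between genotypes, Gpc4 as its neighbour on the X chromosome with almost none, and Sdc4 as the gene that varied least. Capitals mark the GC box, the letters GGGCGG or, on the other strand, CCGCCC. No 2 of the marked boxes overlap.
Gpc3, chrX:52613975-52614224, minus strand: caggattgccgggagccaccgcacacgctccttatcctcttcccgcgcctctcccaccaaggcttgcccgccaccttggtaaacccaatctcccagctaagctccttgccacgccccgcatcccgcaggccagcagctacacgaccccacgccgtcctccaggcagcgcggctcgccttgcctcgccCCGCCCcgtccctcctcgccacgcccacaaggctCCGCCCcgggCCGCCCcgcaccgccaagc
Gpc4, chrX:52164924-52165173, minus strand: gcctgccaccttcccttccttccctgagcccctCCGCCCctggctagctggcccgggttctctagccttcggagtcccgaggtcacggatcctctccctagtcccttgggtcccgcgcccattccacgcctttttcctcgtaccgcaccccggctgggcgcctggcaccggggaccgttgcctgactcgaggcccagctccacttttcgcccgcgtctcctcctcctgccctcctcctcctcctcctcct
Sdc4, chr2:164443189-164443438, minus strand: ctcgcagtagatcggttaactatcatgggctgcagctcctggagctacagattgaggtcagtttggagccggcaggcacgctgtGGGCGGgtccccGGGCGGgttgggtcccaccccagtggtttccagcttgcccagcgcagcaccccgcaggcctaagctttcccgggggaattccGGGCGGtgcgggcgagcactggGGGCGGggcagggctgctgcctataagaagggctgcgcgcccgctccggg
The GC box occurred 3 times before Gpc3, 1 time before Gpc4 and 4 times before Sdc4. All 7 genes with a sequence held at least 1, and 32.7% of the 32851 RefSeq promoter windows of that length did. The TATA box, the letters TATAAA on either strand, was found only before Gpc5 among the 7, against 12.4% of all windows. An E-box, the letters CAGGTG on either strand, was in none of the 7 and in 17.2% of all windows. The share of G and C was 71.6% before Gpc3, 68.4% before Gpc4 and 68.0% before Sdc4, with a median of 52.4% over all windows. These matches describe the letters in the windows. Only the exact letters were counted, at any position in a window, and close variants were not. The genome build behind the array's probe sets is not given in the sources used here.

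Among the syndecans, Sdc4, the member with a role in focal adhesions, was the most even. Its levels were 11.19, 11.25 and 11.23 in the SG+/- tumours and 11.29, 11.21 and 11.32 in the SG-/- tumours. The groups overlapped, and the highest and lowest tumours lay 1.09-fold apart. Only 0.575% of the detected genes had a smaller SD over the 6 tumours. The genotypes differed by 0.053, and limma's 95% confidence interval ran from -0.22 to 0.32 (standard error 0.11, adjusted p = 1.00). On the linear scale that interval runs from 0.861-fold to 1.25-fold, which makes Sdc4 the gene of the 10 with the narrowest interval. SG-/- replicate 3, low in most detected genes, held the highest Sdc4 value of all 6 tumours.

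Sdc1, the epithelial syndecan, measured 8.01, 8.59 and 8.08 in the SG+/- tumours and 8.73, 8.43 and 8.18 in the SG-/- tumours. SG+/- replicate 2 lay above 2 of the 3 SG-/- tumours, so the groups overlapped. The means were 8.23 ± 0.32 and 8.45 ± 0.27 (SD, n = 3 each), and the difference of 0.22 had an interval from -0.28 to 0.73 (limma adjusted p = 1.00). Without SG+/- replicate 2 it was 0.41 and without SG-/- replicate 1 it was 0.082. A dimmer probe set of Sdc1, whose mean of 6.03 lay under the level of detection, gave a similar difference of 0.21. Because SDC1 also marks plasma cells, their marker list is set beside it. Of its 7 members only 2 were above the level by their means over 6 tumours, and the defining genes Jchain, Mzb1 and Tnfrsf17 were not. Jchain read 5.17, 7.62 and 5.90 in the SG+/- tumours and 7.44, 6.93 and 7.64 in the SG-/- tumours. Single tumours of both genotypes thus lay above the level of 7.07 in Jchain. The mean level of the plasma cell list was 6.55 to 6.60 in SG+/- and 6.60 to 7.08 in SG-/- tumours. The part of plasma cells in the Sdc1 values was not tested.

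Sdc2, the syndecan of fibroblasts and endothelium, was nearly identical in the SG+/- tumours, at 9.99, 9.96 and 9.95. The SG-/- tumours held both the highest and the lowest values, at 10.31, 10.23 and 9.64. The difference of 0.093 had a standard error of 0.19 and an interval from -0.37 to 0.55 (limma adjusted p = 1.00). It moved with single tumours. Without SG-/- replicate 3 it was 0.30 (limma unadjusted p = 0.0253, adjusted p = 0.831), and without SG-/- replicate 1 it was -0.030.

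Sdc3, the syndecan first described in nerve tissue, stood at 10.18, 10.27 and 10.58 in the SG+/- tumours. In the SG-/- tumours it stood at 10.43, 10.54 and 10.28, inside the range of the other group. The difference was 0.073 with an interval from -0.29 to 0.44 (limma adjusted p = 1.00). Of 5 measured markers of Schwann cells and nerve, 3 were above the level, and the median of that list differed by -0.089. Here as in the other genes of bulk tissue, fewer cells of a type and less RNA per cell cannot be told apart.

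**Figure D2:**
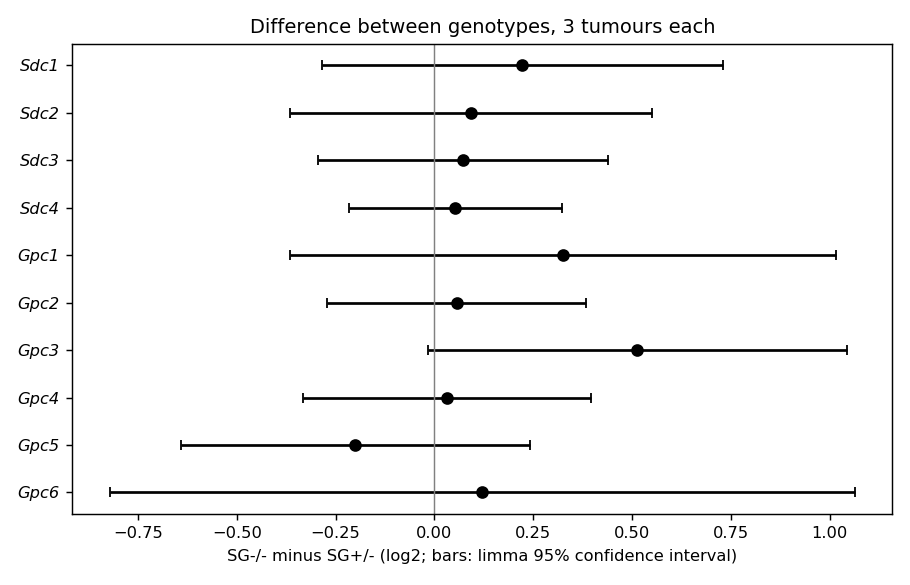
Difference between genotypes for each gene, as SG-/- minus SG+/- in log2 units (horizontal axis), with the 95% confidence interval from limma as a bar. All 10 intervals include 0, that of Gpc3 by the smallest margin (-0.016 to 1.04), and that of Sdc4 is the narrowest.

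Gpc3, a glypican that binds hedgehog and Wnt proteins and is lost in a human overgrowth syndrome, had the largest difference of the 10. Its levels were 6.92, 7.01 and 6.93 in the SG+/- tumours and 7.80, 7.63 and 6.96 in the SG-/- tumours. SG-/- replicates 1 and 2 lay above all SG+/- tumours, while SG-/- replicate 3 lay between them. The means were 6.95 ± 0.054 and 7.47 ± 0.44 (SD, n = 3 each). They lay 0.51 apart, with a standard error of 0.22 and an interval from -0.016 to 1.04, or 1.43-fold with bounds of 0.989-fold and 2.06-fold. Its limma p was 0.0556 before adjustment and 1.00 after it, rank 521 of 22180 genes. Since the SG+/- level lies near that of silent genes, the size of the difference is uncertain. With the arrays brought to the same distribution a further time it was 0.41. Without SG-/- replicate 3 the difference was 0.77 (limma unadjusted p = 6.7e-04, adjusted p = 0.645) and without SG-/- replicate 1 it was 0.35.

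Gpc4, its neighbour, which also binds Wnt and fibroblast growth factors, showed almost no difference. Levels were 8.79, 8.88 and 9.01 in the SG+/- tumours and 9.06, 9.05 and 8.67 in the SG-/- tumours. SG-/- replicates 1 and 2 were the highest of the 6 tumours and SG-/- replicate 3 the lowest. The difference was 0.031 with an interval from -0.33 to 0.40 (limma adjusted p = 1.00). The SG-/- tumours that were high in Gpc3 were thus also the highest in Gpc4, by a smaller margin.

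Gpc1, a glypican of many cell types that acts as a coreceptor for fibroblast growth factors, was even in the SG+/- tumours, at 8.26, 8.30 and 8.32. The SG-/- tumours stood at 8.58, 9.26 and 8.02, with SG-/- replicate 2 the highest of all 6 and SG-/- replicate 3 the lowest. The SD was 0.027 in SG+/- and 0.62 in SG-/- tumours. The difference of 0.32 had a standard error of 0.29 and an interval from -0.37 to 1.01 (limma adjusted p = 1.00). It rested on SG-/- replicate 2, without which it was 0.0050, and was 0.62 without SG-/- replicate 3. A second, dimmer probe set of Gpc1, also above the level of detection with a mean of 7.29, disagreed. It read 7.28, 7.44 and 7.30 in the SG+/- tumours and 7.14, 7.39 and 7.22 in the SG-/- tumours, with a difference of -0.091, and did not show the high value of SG-/- replicate 2. Which part of the transcript each probe set covers is not given in the sources used here.

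Gpc6, which like Gpc4 is made by mesenchymal cells and astrocytes among others, varied most between tumours. It stood at 8.35, 9.49 and 8.89 in the SG+/- tumours and 9.15, 9.64 and 8.31 in the SG-/- tumours. Tumours of both genotypes were found at the top and at the bottom, 2.51-fold apart. The SD over 6 tumours was larger than in 96.4% of detected genes. The difference of 0.12 had an interval from -0.82 to 1.06 (limma adjusted p = 1.00), the widest of the 10. Leaving out SG+/- replicate 1 gave -0.16, and leaving out SG-/- replicate 2 gave -0.18. It became 0.41 with SG+/- replicate 2 left out and 0.48 with SG-/- replicate 3 left out.

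Gpc2, a glypican of developing neurons, and Gpc5 were not detected by the level used here, so their differences have little to rest on. Gpc2 ranged from 6.25 to 6.53 in SG+/- and from 6.40 to 6.62 in SG-/- tumours, with a difference of 0.056. A further probe set that the annotation shares between Gpc2 and Gal3st4 was left out, because its signal cannot be given to 1 gene. Gpc5 stood at 6.44, 6.73 and 6.74 in the SG+/- tumours and at 6.32, 6.21 and 6.78 in the SG-/- tumours. Its difference of -0.20 had an interval from -0.64 to 0.24 (limma adjusted p = 1.00) and was -0.37 without SG-/- replicate 3. In Gpc5 it was SG-/- replicate 3 that was the highest tumour, the array in which the silent receptor genes also read highest.

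**Figure D3:**
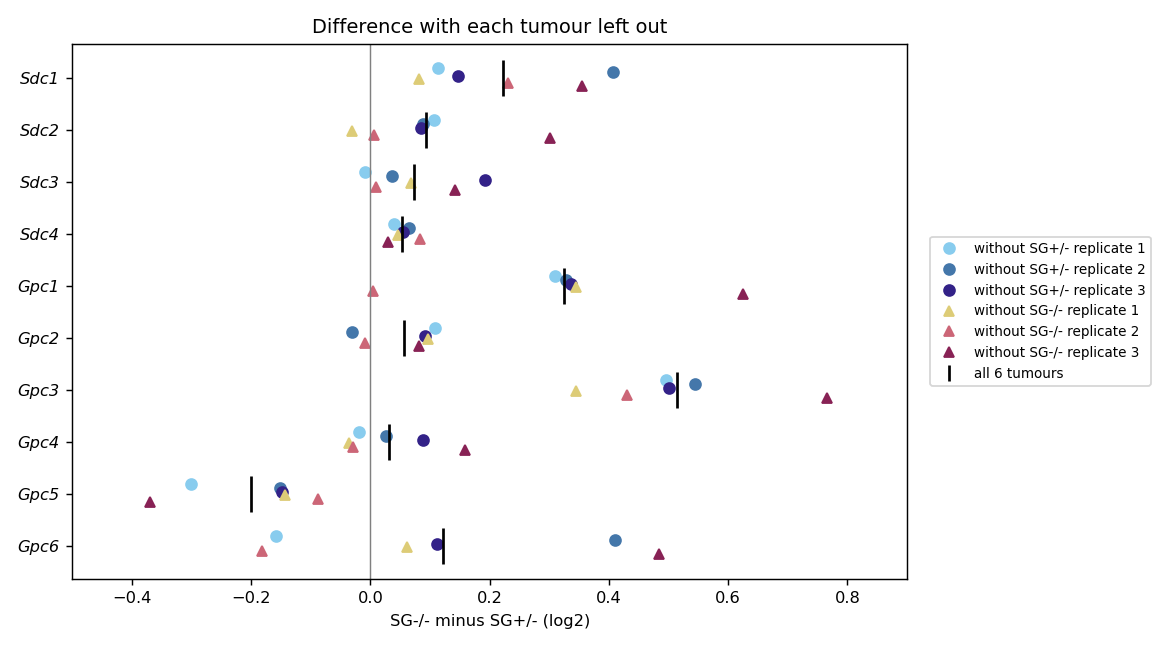
Difference between genotypes (SG-/- minus SG+/-, log2, horizontal axis) with all 6 tumours (black bars) and with each tumour left out in turn (circles for SG+/-, triangles for SG-/-). Leaving out SG-/- replicate 3 gives the largest difference in Sdc2, Gpc1, Gpc3, Gpc4 and Gpc6 and the lowest value in Gpc5, and Sdc4 stays between 0.029 and 0.083.

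The same 2 SG-/- tumours stood out in several genes. Relative to the SG+/- mean of each gene, the median over the 10 genes was 0.20 in SG-/- replicates 1 and 2 and -0.054 in SG-/- replicate 3, against -0.069, 0.016 and 0.014 in the SG+/- tumours. Over the 8 detected members the SG-/- medians were 0.26, 0.24 and -0.14, beside 0.055, 0.026 and -0.23 over all detected genes. Gpc3 counts among the 8 only through its SG-/- values, as its SG+/- mean of 6.95 was under the level. The medians over the 8 are therefore no support for a difference. Of the 8 detected members, 4 (Sdc2, Gpc1, Gpc4 and Gpc6) were lowest in SG-/- replicate 3, a share under the 59.8% of all detected genes. After the arrays had been quantile-normalized again, 2 of the 8, Sdc2 and Gpc3, were lowest there, or 25.0%, beside 27.0% of detected genes. The SD was larger among SG-/- than among SG+/- tumours in 7 of the 10 genes, beside 64.1% of detected genes. Without SG-/- replicate 3, 4 of the 10 genes (Sdc2, Gpc1, Gpc3 and Gpc5) had an unadjusted limma p under 0.05. Of all genes 5.41% did, and none passed adjustment. The directions differed, as Gpc5, which was not detected, was lower (-0.37) and Sdc2, Gpc1 and Gpc3 were higher. The second probe set of Gpc1 gave -0.091 with all tumours. No member had such a p with any other tumour left out. SG-/- replicate 3 was singled out with its values known, so this count is no evidence for a difference. Limma's array weights gave SG-/- replicate 2 a weight of 4.95 and SG-/- replicate 3 one of 0.197. With them 5 members (with Gpc6 added) had an unadjusted limma p under 0.05, and the share of all genes was 11.6%. The weights were estimated from the same values, so they give no independent support.

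Markers of other cell types also differed between these tumours, and their part in the values above was not tested. All 10 fibroblast markers had higher means in SG-/- tumours, at list medians, relative to the SG+/- mean, of 1.26, 0.12 and 0.44 in the SG-/- tumours and 0.15, 0.19 and -0.27 in the SG+/- tumours. SG-/- replicate 2 thus lay under SG+/- replicates 1 and 2 in that median. The mean level of that list was 8.79 to 9.26 in SG+/- and 9.26 to 10.4 in SG-/- tumours, and all 10 were detected. All 8 endothelial markers were higher as well, at medians of 0.58, 0.37 and 0.16 against -0.11 to 0.096 in SG+/- tumours. Their mean level was 7.48 to 7.71 in SG+/- and 7.76 to 8.19 in SG-/- tumours (7 of 8 detected, not Cldn5). Vwf counts as detected only through its SG-/- values, as its SG+/- mean of 7.06 was just under the level. Macrophage markers stood at 0.97, 0.40 and 0.14 against -0.056 to 0.057, with all 7 higher, a mean level of 8.29 to 8.41 against 8.40 to 9.30, and 6 of 7 detected, not Cd163. None of these markers passed limma's adjusted test (0 of 25), and 0.0% of all genes did. The genotypes did not overlap in 3 of 10 fibroblast, 5 of 8 endothelial and 3 of 7 macrophage markers, beside 6.03% of all genes. An unadjusted limma p under 0.05 was found in 3, 3 and 2 of them, beside 2.11%. All of these markers were higher in SG-/- tumours. The lists were chosen with earlier results of these data known, and the counts carry no test. In all 3 lists SG-/- replicate 1 was the highest tumour, as it was in Gpc3, Sdc1, Sdc2 and Gpc4. SG-/- replicate 2, not replicate 1, was the highest in Gpc6 and in the brighter probe set of Gpc1, but not in the second Gpc1 probe set. In that tumour it was the basal and myoepithelial list that stood out. The medians of that list were 0.43, 1.17 and -0.28 in the SG-/- tumours and -0.32, 0.30 and 0.12 in the SG+/- tumours. Luminal markers were more even, from -0.073 to 0.20 over the 6 tumours. Salivary gland markers, of which 7 of 9 were detected, had medians of 2.47, -0.35 and 1.81 in the SG-/- tumours, while the SG+/- tumours lay between -0.23 and 0.13. Among the 7, Amy1 and Bpifa2 passed the level only through their SG-/- values, as their SG+/- means were 6.63 and 6.21. Dcpp2 passed it only through its SG+/- values, with an SG-/- mean of 6.23. The salivary gland markers did not move together, as 6 had higher and 3 lower means in SG-/- tumours. Adipocyte markers, with 2 of 6 detected, read 0.082, -0.39 and 0.26 in the SG+/- tumours and 0.34, -0.12 and 0.55 in the SG-/- tumours. Skeletal muscle markers, with 5 of 6 detected, read 0.27, -0.69 and 0.50 in the SG+/- tumours and 0.11, -0.88 and 0.57 in the SG-/- tumours. Both lists varied within each genotype.

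**Figure D4:**
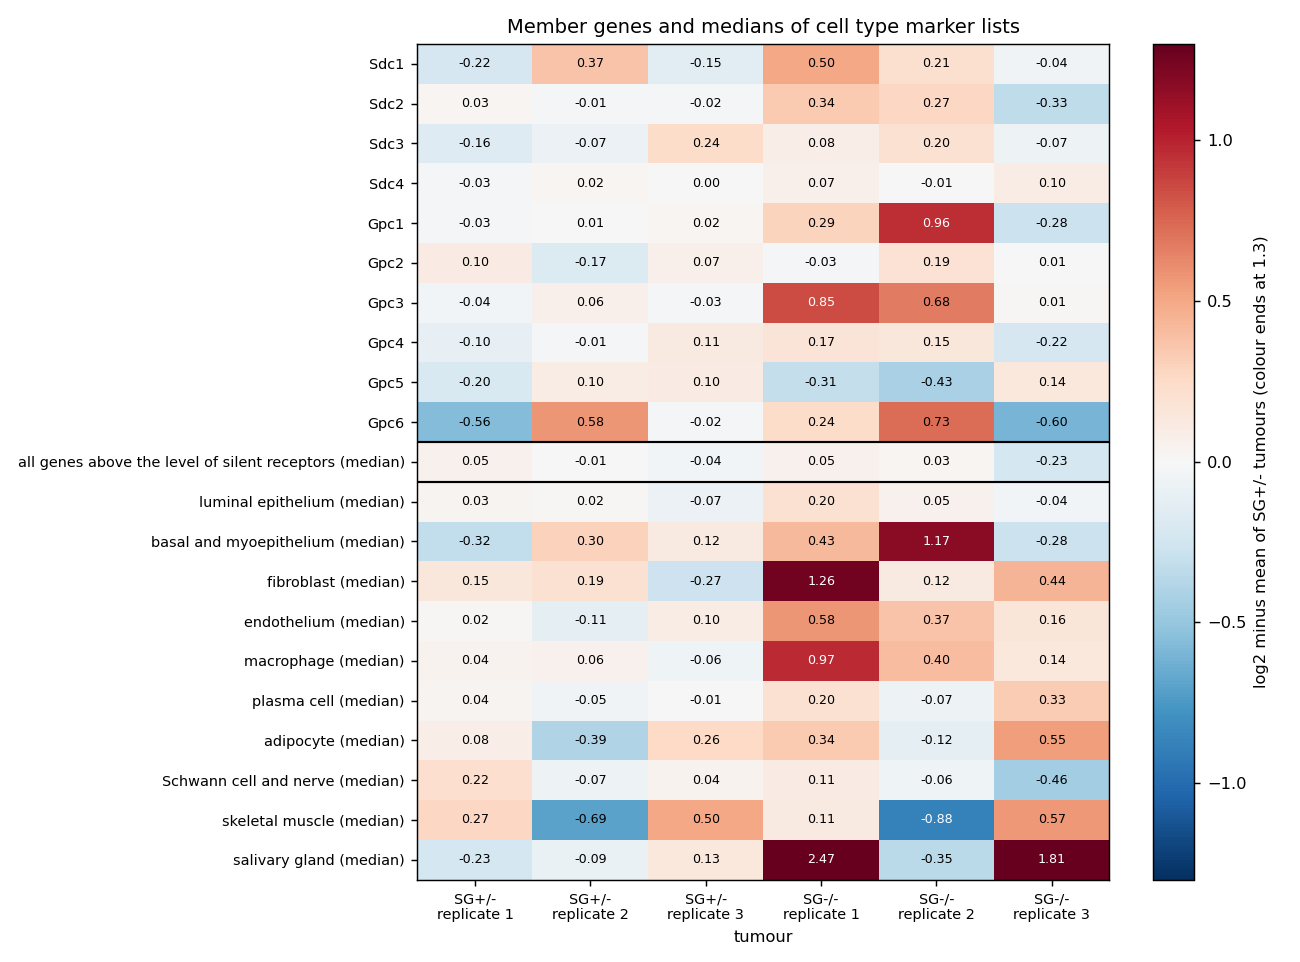
Each row gives, for 1 syndecan or glypican, for the median of all detected genes or for the median of a cell type marker list, the log2 value in each of the 6 tumours minus the mean of the SG+/- tumours (red higher, blue lower, colour ending at 1.3). Gpc3 reads 0.85 and 0.68 in SG-/- replicates 1 and 2 and 0.01 in replicate 3, Gpc1 reads 0.96 in SG-/- replicate 2, and detected genes have a median of -0.23 in SG-/- replicate 3.

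The genes with the most similar profile were found for each detected member by the root mean square distance between log2 values, centred per gene, over the 6 tumours, among 10212 detected and named genes. For Gpc3 they were Jcad, a gene of endothelial junctions (0.059), and Tnf, the cytokine (0.067), where the profile of Gpc3 itself had a root mean square of 0.36. Gpc1 was nearest to Gas1 (0.086) and Reck (0.10), and Gpc6 to Slc6a15 (0.11) and Osr1 (0.12). Sdc1 was nearest to Igfbp7 (0.053) and Cpne2 (0.073), and Sdc2 to Fam83h (0.031) and Hivep1 (0.033). For Sdc3 the genes were Hipk2 (0.047) and Rybp (0.059), for Gpc4 Ube2d1 (0.022) and Ston1 (0.025), and for Sdc4 Siva1 (0.034) and Lamp2 (0.036), where the profile of Sdc4 itself had only 0.044. These likenesses rest on 6 arrays and carry no test.

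In the 7 lists of genes that make, trim or read heparan sulfate chains, 0 of 113 measured genes passed limma's adjusted test. An unadjusted limma p under 0.05 was found in 4 of the 113, beside 2.11% of all genes, and 7 showed no overlap between genotypes, beside 6.03%. Of 25 measured enzymes that build and sulfate the chains, 16 were detected, 11 had higher and 14 lower means in SG-/- tumours, and the median difference was -0.012. Xylt1, which starts the chain, differed by 0.060 with a standard error of 0.15. Hs6st2, a 6-O-sulfotransferase, had the smallest p of these enzymes, with a difference of 0.32 (standard error 0.12, limma adjusted p = 1.00), but its levels of 5.02 to 5.49 were under the level of detection. It was 1 of 2 enzymes without overlap between genotypes, both higher in SG-/- tumours.

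Among 13 genes that shed core proteins or edit chains, 8 were higher and 5 lower, with a median of 0.085. Hpse, the heparanase, read 5.94, 6.00 and 5.28 in the SG+/- tumours and 7.11, 6.16 and 5.99 in the SG-/- tumours, largely under the level of detection. Timp3, an inhibitor of metalloproteinases that binds sulfated chains, read 9.24, 9.74 and 9.11 in the SG+/- tumours and 10.59, 10.64 and 9.56 in the SG-/- tumours. SG-/- replicates 1 and 2 lay above all SG+/- tumours and SG-/- replicate 3 between them, as in Gpc3. The Timp3 difference was 0.90 with a standard error of 0.32 (limma adjusted p = 1.00).

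Of 9 other heparan sulfate proteoglycans, 6 were higher and 3 lower, with a median of 0.10. Hspg2, which encodes perlecan of basement membranes, read 8.75, 8.69 and 8.97 in the SG+/- tumours and 9.61, 9.41 and 8.94 in the SG-/- tumours. Its difference of 0.51 had a standard error of 0.20 (limma adjusted p = 1.00), and SG-/- replicate 3 lay again among the SG+/- tumours.

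Ligands that bind the chains were split evenly, with 11 of 22 higher, 11 lower and a median of 0.0084. Fgf1, a fibroblast growth factor, differed by 0.26 with a standard error of 0.25. Ccl5, a chemokine that binds heparan sulfate, was 1 of 2 ligands whose values did not overlap between genotypes, and the other was lower in SG-/- tumours. The Ccl5 values were 8.12, 8.52 and 8.43 in the SG+/- tumours and 9.36, 9.10 and 8.87 in the SG-/- tumours, with a difference of 0.75 and a standard error of 0.18 (limma adjusted p = 1.00). The 25 receptors had a median of -0.016, with 11 higher and 14 lower. Fgfr1 differed by 0.070 with a standard error of 0.20 and Lrp6, a coreceptor for Wnt, by -0.26 with a standard error of 0.12, neither past the adjusted limma test. Lrp6 was 1 of 2 receptors without overlap between genotypes, both lower in SG-/- tumours.

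Of 11 partners of the syndecan tail, 3 were higher and 8 lower, with a median of -0.12, and all 11 were detected. Sdcbp, which encodes the PDZ protein syntenin, differed by 0.0066 with a standard error of 0.14. Ezr, which links membrane proteins to actin, differed by -0.29 with a standard error of 0.16, and its values did not overlap between genotypes. The list's medians were 0.0057, 0.025 and -0.21 in the SG-/- tumours, beside 0.055, 0.026 and -0.23 over all detected genes. Of 9 measured genes that report hedgehog and Wnt signalling, 3 were higher and 6 lower, with a median of -0.071, and only 3 were detected. Gli1, a target of hedgehog signalling, differed by -0.038 and Hhip, an inhibitor of it, by -0.15, both under the level of detection.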

How the data were processed

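Total RNA from 6 snap-frozen tumours was isolated with Trizol, turned into biotin-labelled sense-strand cDNA and measured on whole-transcript arrays, per the labels. Deposited were log2 expression values for each probe set, which the authors had normalized with RMA. The submitters' processing notes also name Affymetrix Expression Console and limma, without versions. Of 33793 probe sets, 23521 had 1 gene symbol, 1814 several and 8458 none in the platform annotation. The brightest probe set per gene left 22180 genes, 21994 of them with an Entrez ID in RefSeq GRCm38.p6. No missing values were found. Genotypes were compared as independent groups of 3 with lmFit and eBayes (limma 3.58.1, R 4.3.3), two-sided; p-values were adjusted by Benjamini and Hochberg over all genes, with 0.05 as threshold. The fit was tested on simulated data. Whether p-values measure more than these 6 tumours depends on the mice being unrelated, which the labels do not state.

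The members, lists and tests were chosen with earlier results of these data known. Named are the 10 members, Srgn, in each of 7 pathway lists the first gene and that with the smallest p, and the 2 nearest profiles of each detected member. Markers of the cell type lists, Epcam and Bpifa2 among them, are outside that rule and were named after their values were seen. The 10 cell type marker lists (luminal, basal, fibroblast, endothelium, macrophage, plasma cell, adipocyte, Schwann cell and nerve, skeletal muscle, salivary gland) were read as array medians, and 190 of 198 list entries were measured. Alternatives were to drop genes dimmer than the 40th percentile of probe sets (6.09), to quantile-normalize again, to centre arrays on brighter genes, eBayes with trend and robust settings, array weights, the mean of a gene's probe sets, the receptor mean as a covariate, all or other probe sets, and each tumour left out. Plots used matplotlib 3.10.9 (Python 3.11.15).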

Additional observations from a re-analysis of the deposited data

How the results depend on the processing

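No member passed the adjusted test under any of the 13 alternatives run for all members, and the lowest adjusted limma p was 0.173, for Gpc3 with array weights. The number of genes called was 0 under the other alternatives, 1 (Srgn) with the receptor mean as a covariate, and 0 to 1 with each tumour left out in turn (Bpifa2, without SG-/- replicate 2). The median difference of the members was 0.19 with array weights and ran from 0.0058 to 0.23 with single tumours left out. Of 132 alternative values of single members, 122 kept their direction and 10 changed it, 9 of these with a tumour left out. Those ranges were -0.030 to 0.30 in Sdc2, -0.0094 to 0.19 in Sdc3, -0.030 to 0.11 in Gpc2, -0.035 to 0.16 in Gpc4 and -0.18 to 0.48 in Gpc6. The remaining reversal was the second Gpc1 probe set, at -0.091. The cause was not tested. Sdc1, Sdc4, Gpc3 and Gpc5 kept their direction under every alternative run. An unadjusted limma p under 0.05 was reached by Gpc3 also without dim genes, with centred arrays and with the receptor covariate. The shares of all genes there were 3.05%, 2.7% and 4.68%. Gpc3 did not reach it when quantile-normalized again (limma unadjusted p = 0.085). Nor did it with trend and robust settings or with the mean of probe sets (limma unadjusted p = 0.055 each). It also did not reach it with any tumour but SG-/- replicate 3 left out. No paired analysis was made because the labels state no pairing between the tumours. Signal near the level of silent receptors limits Gpc2, Gpc5, Srgn and, in SG+/- tumours, Gpc3.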

Other observations

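The basal and myoepithelial list, whose median stood highest in the same tumour as Gpc1 and Gpc6, did not move as a block. The smooth muscle genes in it, which myoepithelial cells share with vessel walls, read highest in SG-/- replicate 2. Relative to the SG+/- mean, Cnn1 stood 2.24 higher there, Myh11 1.78 and Acta2 1.17. The oxytocin receptor gene Oxtr stood 1.21 higher and Trp63, a transcription factor of basal cells, 0.69. The basal keratins did not share this. Krt14 was 0.081 higher in that tumour and Krt17 differed by -0.14, and both read highest in SG+/- replicate 2, at 0.84 and 0.97. Gpc6, at 0.73 in SG-/- replicate 2 and 0.58 in SG+/- replicate 2, was high in both of these tumours. The brighter probe set of Gpc1 was high in SG-/- replicate 2 (0.96) and not in SG+/- replicate 2 (0.0074). The second Gpc1 probe set did not show this, at 7.39 in SG-/- replicate 2 and highest in SG+/- replicate 2, at 7.44. None of the 7 markers passed limma's adjusted test between genotypes (adjusted p = 1.00 for each), and 0.0% of all genes did. The genes were looked at after the values of Gpc1 and Gpc6 had been seen, and the relation was not tested.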
